A study of Mus musculus with 16 samples.

Results

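The 7 keratins described here are Krt7, Krt8 and Krt80 (type II) and Krt18, Krt19, Krt20 and Krt23 (type I), keratins known from single-layered and glandular epithelium; Krt80 was barely detected in these cells. They were chosen by gene symbol, and each of the 7 had 1 entry among the 46878 genes used of the deposited count tables. All 7 passed the filter on low counts. The study profiled 16 bulk RNA libraries, 4 in each of 4 groups, all from RedMUC298trTg mice of 6 to 8 weeks, a strain that carries an mCherry-tagged MUC2 transgene, so the mucin reporter was present in every group. DC goblet cells were live mCherry-positive cells of the distal colon and DC other cells the live mCherry-negative epithelial cells of the same region, labelled colonocytes. Si8 goblet cells and Si8 other cells were the same sorts from section 8 of the small intestine, the other cells being labelled enterocytes. Gates were set on a C57Bl6 mouse without the reporter, and RNA was purified on MinElute columns for goblet cells and on Mini columns for other cells, so column and cell type cannot be told apart.

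Keratins are the intermediate filament proteins of epithelial cells. A filament is built from pairs of an acidic type I chain and a basic type II chain, and a chain without a partner is degraded, so both types are needed in every cell. In simple epithelium Krt8 is the main type II chain, and Krt18, Krt19 and Krt20 are its type I partners. In the intestine the filaments lie densely under the apical membrane and are anchored to desmosomes, and mice without Krt8 develop colitis. Mouse type I genes lie in a cluster on chromosome 11 and type II genes in a cluster on chromosome 15, with Krt18 as the exception, since it lies beside Krt8.

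Total counts, in units of 1000000 (M), were 11.9 to 18.5 M in DC goblet, 14.9 to 17.7 M in DC other, 37.4 to 40.5 M in Si8 goblet and 30.8 to 41.1 M in Si8 other libraries. Mitochondrially encoded genes took 0% of the counts in all 8 DC libraries, 3.19% to 4.07% in Si8 goblet and 6.07% to 8.36% in Si8 other libraries, so the 2 regions' tables differ in these genes. Each region has a count table of its own, and region cannot be told apart from how its table was made or from depth. The 8 goblet markers summed to 38600 to 43600 counts per 1000000 counts (CPM) in DC goblet against 446 to 588 CPM in DC other cells, and to 125831 to 286860 CPM in Si8 goblet against 311 to 790 CPM in Si8 other cells, none of them at 0 in any group. The 6 colonocyte markers summed to 142 to 248 CPM in DC goblet against 6320 to 7220 CPM in DC other cells, and the 7 ileal enterocyte markers to 1110 to 2150 CPM in Si8 goblet against 9640 to 19200 CPM in Si8 other cells. The 6 Paneth cell markers summed to 12400 to 33000 CPM in Si8 goblet against 673 to 1800 CPM in Si8 other cells. The 6 intraepithelial lymphocyte markers summed to 8.39 to 16.3 CPM in Si8 goblet against 187 to 299 CPM in Si8 other cells. Markers of squamous and anal epithelium, which has keratins of its own, summed to 2.15 to 3.38 CPM in DC goblet, 3.57 to 4.93 CPM in DC other, 1.73 to 3.41 CPM in Si8 goblet and 0.778 to 1.5 CPM in Si8 other libraries over 11 genes, with Sprr3 at 0 counts everywhere. The part of these other cell types and of the columns in the keratin results was not tested. With the mitochondrially encoded and the 10 most abundant genes left out of the fit, each keratin stayed on its side of the threshold in all 5 comparisons. In bulk samples fewer cells of a type and less RNA per cell cannot be told apart.

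Together the 7 keratins took 0.514% ± 0.0233 of the counts in DC goblet against 0.935% ± 0.0329 in DC other cells, and 0.868% ± 0.0632 in Si8 goblet against 1.09% ± 0.0109 in Si8 other cells (SD, n = 4 libraries each). The composition of that pool differed between the sorts. In the distal colon Krt7 and Krt18 rose in goblet cells and the other 5 keratins fell, at adjusted p under 0.05 in edgeR's quasi-likelihood test, in a comparison that called 55.7% of the 16001 genes tested, 27.8% higher and 27.9% lower. In section 8 Krt7, Krt18 and Krt23 rose in goblet cells, Krt8, Krt19 and Krt20 fell, and Krt80 did not pass, where 64.9% of genes were called, 33.1% higher and 31.8% lower. The 4 goblet and 4 other libraries did not overlap for 6 of the 7 keratins in the colon, against 53.8% of all genes tested, and for 4 of 7 in section 8, against 53.9% of all genes. The members' median log2 fold change was -1.07 in the colon and -0.01 in section 8, where the median over all genes tested was 0.03 in both regions. With most genes called in both comparisons, the number of keratins called says little, and the changes differ by their size and direction gene by gene.

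**Figure D1:**
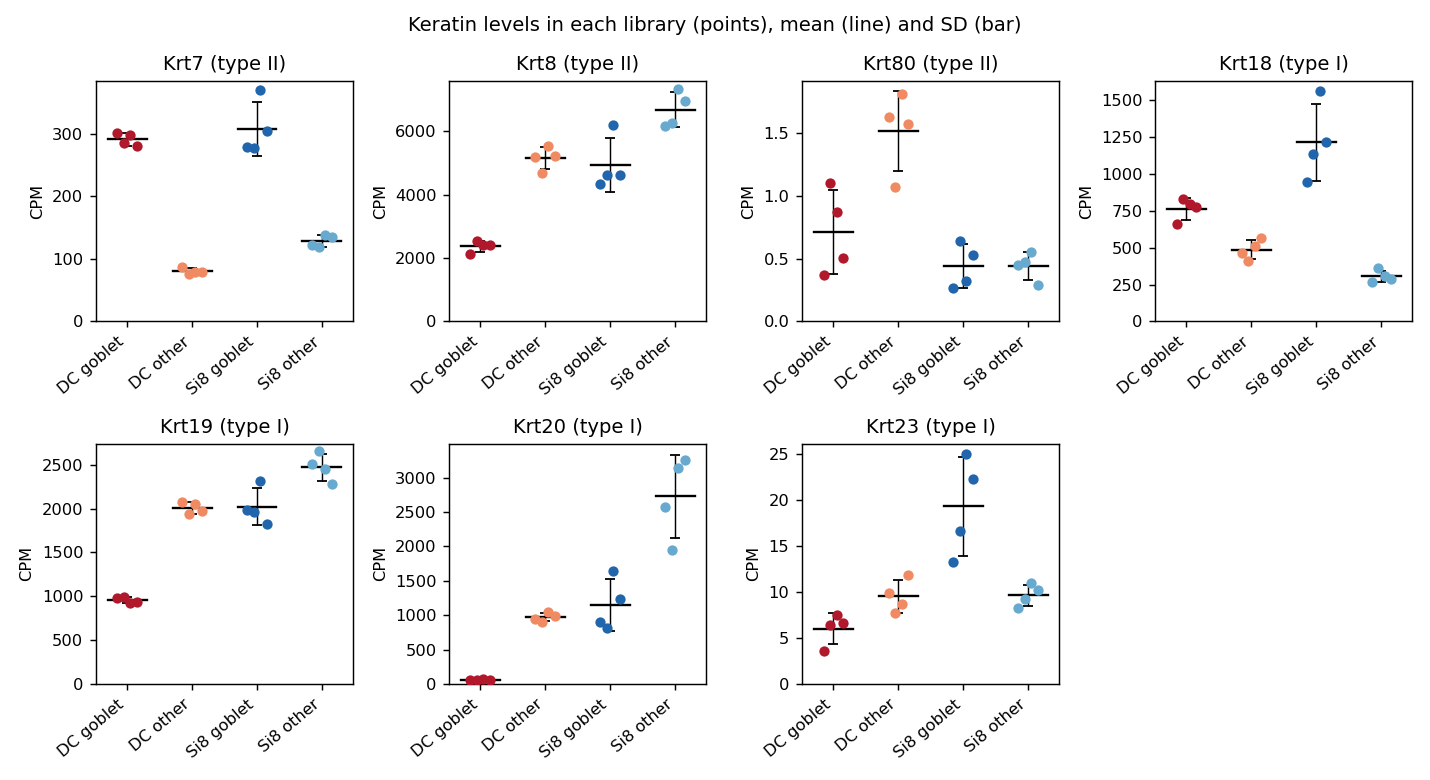
Level of each keratin in CPM on a linear axis from 0, 1 panel per gene, with 1 point per library, the mean as a line and the SD as a bar (n = 4 per group). Krt7 and Krt18 lie higher in goblet than in other cells of both regions, and Krt20 in DC goblet cells lies between 61.27 and 70.03 CPM, below every library of the other 3 groups.

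Krt8 and its partner Krt18 lie head to head on mouse chromosome 15, and they moved in opposite directions. Krt8 (ENSMUSG00000049382.10) spans chr15:101996698-102004482 on the minus strand of GRCm38. Krt18 (ENSMUSG00000023043.7) spans chr15:102028180-102032027 on the plus strand, and their gene starts in GENCODE are 23.7 kb apart. The RefSeq start sites used for the windows below differ from these gene starts. To set the promoters of genes that rose in goblet cells beside those of genes that fell, the 300 bases around the RefSeq start sites (250 before, 50 after, GRCm38.p6) of Krt7, Krt18, Krt8 and Krt20 are shown 5′ to 3′ on the gene's strand, with matches to 4 motifs in capitals.
Krt7, chr15:101412153-101412452, plus strand, rose in goblet cells: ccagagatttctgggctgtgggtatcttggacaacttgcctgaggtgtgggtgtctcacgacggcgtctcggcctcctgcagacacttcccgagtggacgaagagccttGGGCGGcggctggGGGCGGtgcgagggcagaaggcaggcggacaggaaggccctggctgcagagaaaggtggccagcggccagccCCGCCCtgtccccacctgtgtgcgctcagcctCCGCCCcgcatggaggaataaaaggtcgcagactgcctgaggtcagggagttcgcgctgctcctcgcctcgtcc
Krt18, chr15:102027966-102028265, plus strand, rose in goblet cells: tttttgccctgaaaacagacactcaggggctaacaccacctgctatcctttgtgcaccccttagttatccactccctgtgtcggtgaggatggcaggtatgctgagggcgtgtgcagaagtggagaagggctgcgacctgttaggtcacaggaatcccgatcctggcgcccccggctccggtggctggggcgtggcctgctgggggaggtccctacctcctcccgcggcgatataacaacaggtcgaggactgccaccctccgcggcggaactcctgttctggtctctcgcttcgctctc
Krt8, chr15:102004293-102004592, minus strand, fell in goblet cells: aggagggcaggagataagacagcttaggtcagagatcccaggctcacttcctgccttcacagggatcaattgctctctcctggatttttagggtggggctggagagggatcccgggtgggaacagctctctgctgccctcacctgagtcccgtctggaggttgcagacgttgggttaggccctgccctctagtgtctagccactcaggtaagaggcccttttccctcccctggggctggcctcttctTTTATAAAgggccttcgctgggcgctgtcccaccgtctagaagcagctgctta
Krt20, chr11:99438104-99438403, minus strand, fell in goblet cells: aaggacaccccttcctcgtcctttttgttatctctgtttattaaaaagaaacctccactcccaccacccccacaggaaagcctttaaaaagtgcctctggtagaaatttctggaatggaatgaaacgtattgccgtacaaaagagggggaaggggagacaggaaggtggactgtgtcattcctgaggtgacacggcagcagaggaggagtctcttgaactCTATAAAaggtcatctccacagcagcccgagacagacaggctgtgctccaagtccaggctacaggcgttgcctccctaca
The motifs searched on both strands were TATAAA, the TATA box, GGGCGG, the GC box bound by Sp1 family factors, TTTATNG, a site of caudal-type homeobox factors, and TGANTCA, the AP-1 site. The Krt7 window held GGGCGG 4 times, on the plus strand from bases -141 and -128 and on the minus strand from bases -56 and -24 relative to the start site, and no TATAAA. The Krt8 window held TATAAA on the minus strand from base -3 and on the plus strand from base -1, 2 overlapping matches that cross the annotated start site. The Krt20 window held TATAAA from base -29, overlapping a match to TTTATNG. The Krt18 window held none of the 4 motifs, nor did that of Krt23. Among 32851 RefSeq windows of the same length, 13.6% held TATAAA, 35.7% GGGCGG, 10.9% TTTATNG and 7.81% TGANTCA. GC content was 66.3% in the Krt7, 61.3% in the Krt18, 58% in the Krt8 and 50% in the Krt20 window, against a median of 52.7% over all windows. A match describes letters in a window and is not a site of binding. Of the 7 keratins, 5 matched a window; the others were Krt19 and Krt80.

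Per kb of transcript, Krt8 had the highest level of the 7 in every library. It was measured at 2112, 2528, 2412 and 2423 CPM in DC goblet cells, against 5190, 4691, 5533 and 5209 CPM in DC other cells. In section 8 it was at 4330, 4605, 6196 and 4629 CPM in goblet cells, against 6160, 6273, 7325 and 6970 CPM in other cells. The colonic groups lay far apart, while in section 8 the highest goblet library, replicate 3, reached just above the lowest other-cell library. Krt8 fell by 1.12 ± 0.117 on the log2 scale in DC goblet cells (SE, edgeR adjusted p = 1e-07), 2.18-fold, and by 0.44 ± 0.116 in Si8 goblet cells (adjusted p = 0.00287), 1.35-fold. Without Si8 goblet replicate 3 the section 8 change was -0.56 ± 0.102 (adjusted p = 0.000101). A transcript of Krt8-ps matches Krt8 at 98.6% identity and one of Gm5200 matches Krt18 at 90.2%, so reads of Krt8 and Krt18 that map to both may have been dropped or split in the counting; the copies themselves were not analysed here.

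Krt18 went the other way. Its level was 658.8, 830.1, 793.1 and 777.7 CPM in DC goblet cells, against 463.3, 408.1, 510.6 and 565.1 CPM in DC other cells. In Si8 goblet cells it was 942.9, 1135, 1565 and 1215 CPM, against 269.3, 359.8, 307.2 and 286.3 CPM in Si8 other cells. The goblet libraries of each region lay above all the other-cell libraries of that region. The rise was 0.65 ± 0.137 on the log2 scale in the colon (adjusted p = 0.000455), 1.57-fold, and 1.99 ± 0.141 in section 8 (adjusted p = 3.72e-10), 3.97-fold.

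The ratio of Krt18 to Krt8 counts within a library does not depend on how libraries are scaled. It was 0.312, 0.328, 0.329 and 0.321 in DC goblet cells, against 0.0893, 0.087, 0.0923 and 0.108 in DC other cells. In Si8 goblet cells it was 0.218, 0.247, 0.253 and 0.263, against 0.0437, 0.0574, 0.0419 and 0.0411 in Si8 other cells. Goblet cells of each region thus held several times more Krt18 per Krt8 transcript than the cells around them, 3.43-fold in the colon and 5.36-fold in section 8. Between regions the ratio was 1.32-fold higher in DC goblet than in Si8 goblet cells and 2.06-fold higher in DC other than in Si8 other cells. In all 4 pairs the libraries did not overlap, and the two-sided exact permutation test gave p = 0.0286 for each, the smallest value that 4 against 4 libraries allow, with an adjusted p of 0.0286 over the 8 ratio tests made. Per kb of transcript the ratio averaged 0.439 ± 0.0108 in DC goblet, 0.128 ± 0.0133 in DC other, 0.334 ± 0.0262 in Si8 goblet and 0.0627 ± 0.0104 in Si8 other cells, so Krt8 exceeded Krt18 in all 16 libraries.

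Krt7 (ENSMUSG00000023039.17, chr15:101411043-101430313, plus strand), a type II chain of ducts and glands, rose in goblet cells of both regions. Its level was 301.2, 285.2, 297.3 and 279.6 CPM in DC goblet cells, against 86.97, 76.17, 79.39 and 79.32 CPM in DC other cells. It stood at 278.8, 276.9, 369.1 and 303.5 CPM in Si8 goblet cells, against 121.7, 118.4, 138.4 and 134.5 CPM in Si8 other cells. Every goblet library was above every other-cell library of both regions. The log2 fold change was 1.85 ± 0.0914 in the colon (adjusted p = 1.81e-12), 3.61-fold, and 1.26 ± 0.0891 in section 8 (adjusted p = 3.55e-10), 2.39-fold.

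Krt80 (ENSMUSG00000037185.9, chr15:101347444-101370162, minus strand), a type II chain that in human keratinocytes lies near desmosomes, was barely detected. Its counts were 7, 15, 16 and 11 reads in DC goblet libraries, or 0.366, 1.103, 0.875 and 0.509 CPM, against 31, 18, 28 and 26 reads in DC other libraries, or 1.63, 1.07, 1.81 and 1.57 CPM. In section 8 they were 10, 25, 10 and 19 reads in goblet libraries, or 0.267, 0.640, 0.319 and 0.530 CPM, against 13, 19, 17 and 9 reads in other libraries, or 0.452, 0.478, 0.552 and 0.292 CPM. Goblet replicate 2 overlapped the lowest other-cell library in the colon, and in section 8 the groups overlapped. Krt80 fell by 1.138 ± 0.332 on the log2 scale in DC goblet cells (adjusted p = 0.0067), while the section 8 change was -0.01 ± 0.345 (adjusted p = 0.991), with a 95% interval from -0.68 to 0.67. Exons of Krt7, Krt8 and Krt80 overlap those of the antisense or opposite-strand RNAs Gm671, Gm36026 and Gm35853, and the strand setting of the counting is not given in the sources used here, so reads of these pairs cannot be told apart.

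Krt19 (ENSMUSG00000020911.14, chr11:100140810-100148665, minus strand), a type I chain that lacks most of the tail domain, had 984.7, 990.4, 928.6 and 931.1 CPM in DC goblet cells, against 2072, 1937, 2057 and 1971 CPM in DC other cells. In section 8 it had 1980, 1965, 2315 and 1823 CPM in goblet cells, against 2506, 2653, 2454 and 2281 CPM in other cells. The colonic groups were far apart; in section 8 goblet replicate 3 passed the lowest other-cell library. Krt19 fell by 1.07 ± 0.088 on the log2 scale in the colon (adjusted p = 3.44e-09) and by 0.29 ± 0.0871 in section 8 (adjusted p = 0.00661). The section 8 call was lost when only the 8 libraries of the 2 groups were fitted, with a log2 fold change of -0.29 and an adjusted p of 0.0592.

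Krt20 (ENSMUSG00000035775.2, chr11:99428403-99438150, minus strand), the type I chain of differentiated cells near the epithelial surface, was the keratin that differed most between the colonic sorts. It was at 61.27, 66.75, 70.03 and 61.89 CPM in DC goblet cells, against 950.4, 903.8, 1051 and 987.5 CPM in DC other cells. In Si8 goblet cells it was at 899.7, 811.9, 1649 and 1231 CPM, against 2575, 1946, 3138 and 3257 CPM in Si8 other cells. The groups did not overlap in either region, and the section 8 libraries were the more scattered. Its log2 fold change was -3.90 ± 0.206 in the colon (adjusted p = 1.48e-11) and -1.25 ± 0.185 in section 8 (adjusted p = 1.2e-05), and the section 8 value was -1.48 ± 0.161 without Si8 goblet replicate 3.

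The ratio of Krt20 to Krt19 counts, both type I chains, was 0.0622, 0.0674, 0.0754 and 0.0665 in DC goblet cells, against 0.459, 0.467, 0.511 and 0.501 in DC other cells. In Si8 goblet cells it was 0.454, 0.413, 0.712 and 0.675, against 1.03, 0.734, 1.28 and 1.43 in Si8 other cells. DC goblet cells stood apart from the other 3 groups. Per kb of transcript Krt20 exceeded Krt19 in Si8 other replicates 3 and 4, where the ratio was 1.05 and 1.17, and in no other library. The ratio was 7.14-fold lower in goblet cells in the colon and 1.98-fold lower in section 8, 8.09-fold lower in DC goblet than in Si8 goblet cells and 2.24-fold lower in DC other than in Si8 other cells. None of the 4 pairs overlapped, and each reached the smallest p of the two-sided exact permutation test, 0.0286, adjusted 0.0286.

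**Figure D2:**
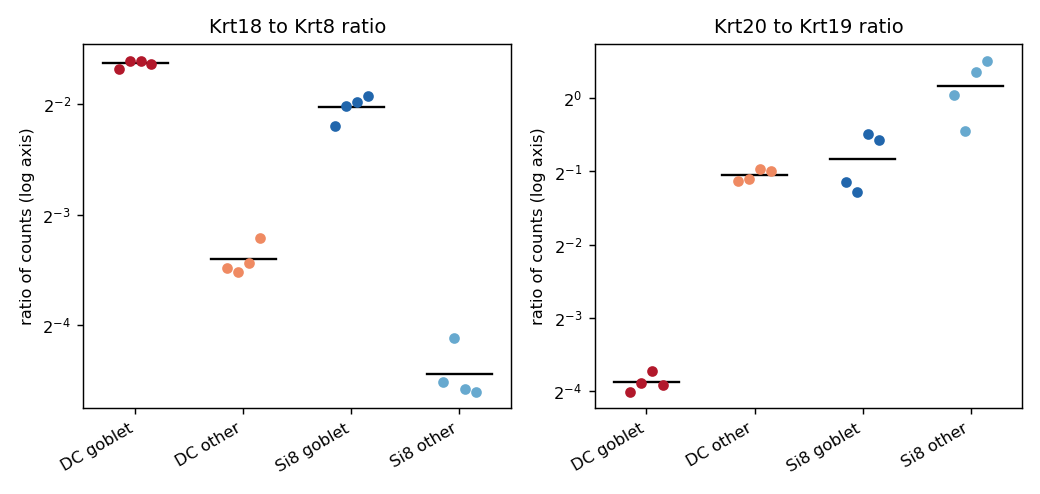
Ratio of counts within each library on a log axis, Krt18 to Krt8 on the left and Krt20 to Krt19 on the right, with 1 point per library and the mean of each group as a line (n = 4). The Krt18 to Krt8 ratio is 0.312 to 0.329 in DC goblet cells and at most 0.108 in DC other cells, and the Krt20 to Krt19 ratio is at most 0.0754 in DC goblet cells and at least 0.413 elsewhere.

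Krt23 (ENSMUSG00000006777.7, chr11:99477974-99493137, minus strand), a weakly expressed type I chain induced by stress in mouse liver, was the keratin whose goblet change had opposite signs in the 2 regions. It had 3.61, 6.47, 7.495 and 6.62 CPM in DC goblet cells, against 9.93, 7.72, 8.68 and 11.9 CPM in DC other cells. In section 8 it had 13.2, 16.7, 25.1 and 22.3 CPM in goblet cells, against 8.32, 9.23, 10.95 and 10.2 CPM in other cells. The groups did not overlap in either region, though by little in the colon. Krt23 fell by 0.66 ± 0.224 on the log2 scale in the colon (adjusted p = 0.0175) and rose by 1.00 ± 0.199 in section 8 (adjusted p = 0.000292). The colonic call was lost without DC goblet replicate 1 (log2 fold change -0.47, adjusted p = 0.0621) and without DC other replicate 4 (-0.54, adjusted p = 0.0669).

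The goblet effect, goblet over other cells, was itself compared between regions as the colonic log2 fold change minus that of section 8, a test that called 32.1% of genes, 15.6% higher and 16.5% lower. It was higher in the colon for Krt7, by 0.59 ± 0.125 (adjusted p = 0.00102). It was lower for Krt8 (-0.69 ± 0.164, adjusted p = 0.00299), for Krt18 (-1.34 ± 0.194, adjusted p = 2.28e-05), and for Krt19 (-0.78 ± 0.123, adjusted p = 6.42e-05). The largest differences were those of Krt20, -2.65 ± 0.264 (adjusted p = 4.03e-07), and Krt23, -1.66 ± 0.3 (adjusted p = 0.000302). Thus 1 keratin differed upward and 5 downward. Krt80 gave -1.13 ± 0.48 (adjusted p = 0.0803) and was not called, with a 95% interval from -2.07 to -0.19; it was called without DC goblet replicate 2 (-1.38, adjusted p = 0.0402) and without Si8 goblet replicate 1 (-1.31, adjusted p = 0.0429).

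**Figure D3:**
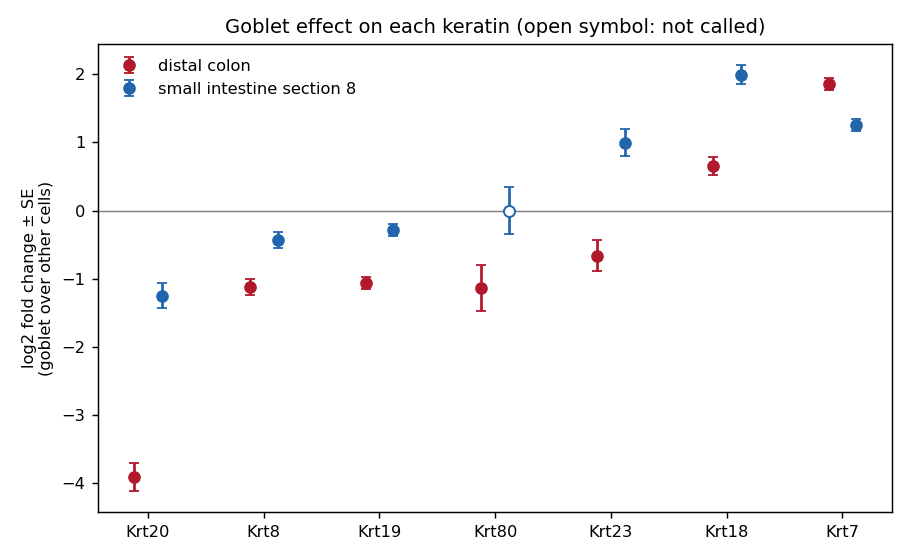
Log2 fold change of goblet over other cells ± SE for each keratin, in distal colon on the left of each pair and section 8 on the right; the open symbol did not reach adjusted p under 0.05. Krt20 lies lowest, at -3.90 in the colon and -1.25 in section 8, and Krt23 lies on opposite sides of 0.

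Between regions, 5 of the 7 keratins were lower and none higher in the deposited DC goblet than Si8 goblet libraries, a contrast that holds the difference between the 2 tables as well as that between the tissues, where 62.1% of genes were called, 30.6% higher and 31.5% lower. The libraries of the 2 regions did not overlap for 5 of the 7, against 57.2% of all genes. Krt20 averaged 65.0 ± 4.16 CPM in DC goblet against 1148 ± 380 CPM in Si8 goblet cells, a log2 difference of -4.14 ± 0.209 (adjusted p = 5.82e-12). Krt23 averaged 6.05 ± 1.69 CPM in DC goblet against 19.3 ± 5.35 CPM in Si8 goblet cells (log2 -1.68 ± 0.214, adjusted p = 2.26e-06). Krt8 averaged 2369 ± 179 CPM in DC goblet against 4940 ± 848 CPM in Si8 goblet cells (log2 -1.06, adjusted p = 1.99e-07), a 2.09-fold difference. For Krt19 the means were 959 ± 33.4 CPM in DC goblet against 2021 ± 209 CPM in Si8 goblet cells (log2 -1.08, adjusted p = 2.82e-09), and for Krt18 765 ± 74.1 CPM in DC goblet against 1215 ± 260.2 CPM in Si8 goblet cells (log2 -0.67, adjusted p = 0.000317). Krt7 did not pass, at 291 ± 10.1 CPM in DC goblet against 307 ± 43.1 CPM in Si8 goblet cells; its log2 difference was -0.08 ± 0.0877 (adjusted p = 0.453), with a 95% interval from -0.25 to 0.09. Krt80 averaged 0.713 ± 0.337 CPM in DC goblet against 0.439 ± 0.176 CPM in Si8 goblet cells (log2 0.63 ± 0.355, adjusted p = 0.131) and would be called without Si8 goblet replicate 2 (0.89, adjusted p = 0.0488).

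In other cells, 2 of the 7 were higher and 4 lower in the colon, where 66.9% of genes were called, 33.3% higher and 33.6% lower, and 6 did not overlap, against 59.6% of all genes. Krt18 was higher in DC other cells, 487 ± 66.9 against 306 ± 39.3 CPM in Si8 other cells (log2 0.67 ± 0.137, adjusted p = 0.000247), the reverse of its order in goblet cells. Krt80 was higher too, 1.52 ± 0.318 CPM in DC other against 0.444 ± 0.11 CPM in Si8 other cells (log2 1.76 ± 0.322, adjusted p = 7.84e-05). Krt20 averaged 973 ± 62.2 CPM in DC other against 2729 ± 601 CPM in Si8 other cells (log2 -1.49 ± 0.186, adjusted p = 1.22e-06), and Krt7 averaged 80.5 ± 4.59 CPM in DC other against 128 ± 9.68 CPM in Si8 other cells (log2 -0.67 ± 0.0892, adjusted p = 1.67e-06). Krt8 was lower at 5156 ± 348 CPM in DC other against 6682 ± 558.5 CPM in Si8 other cells (log2 -0.37, adjusted p = 0.00791). Krt19 was lower at 2009 ± 65.8 CPM in DC other against 2473 ± 153 CPM in Si8 other cells (log2 -0.30, adjusted p = 0.00509). Krt23 averaged 9.56 ± 1.80 CPM in DC other and 9.68 ± 1.15 CPM in Si8 other cells and did not pass (log2 -0.02 ± 0.21, adjusted p = 0.949). The 5 comparisons share groups, so they are not independent of each other.

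Levels of different genes were compared per kb of transcript. The type I chains summed to 1178 ± 52.4 CPM per kb in DC goblet and 2125 ± 97 in DC other cells, and the type II chains to 1281 ± 89.7 CPM per kb in DC goblet and 2653 ± 178 in DC other cells. In section 8 type I summed to 2736 ± 476 in goblet and 3205 ± 210 CPM per kb in other cells, and type II to 2598 ± 443 in Si8 goblet and 3444 ± 288 CPM per kb in Si8 other cells. The ratio of type I to type II was 0.921 ± 0.0333 in DC goblet, 0.802 ± 0.019 in DC other, 1.05 ± 0.0281 in Si8 goblet and 0.932 ± 0.0355 in Si8 other cells, so the 2 pools were of similar size in every group. By coding length instead, chosen after seeing that the Krt7 transcript has 4094 bp of which 1371 are coding, it was 0.796 ± 0.0269 in DC goblet, 0.787 ± 0.0184 in DC other, 0.985 ± 0.0293 in Si8 goblet and 0.95 ± 0.0382 in Si8 other cells. Within type I, Krt18 made up 45.1% ± 2.72 in DC goblet against 15.9% ± 1.68 in DC other cells, and 30.8% ± 2.2 in Si8 goblet against 6.68% ± 1.21 in Si8 other cells. Krt20 made up 2.86% ± 0.146 in DC goblet against 23.8% ± 0.66 in DC other cells, and 21.4% ± 3.73 in Si8 goblet against 43.9% ± 7.17 in Si8 other cells. Krt19 made up 51.7% ± 2.83 in DC goblet, 60% ± 1.96 in DC other, 47.4% ± 4.92 in Si8 goblet and 49.3% ± 6.12 in Si8 other cells, and Krt23 never exceeded 0.537%. Within type II, Krt8 made up 94.4% to 99.2% on average and Krt7 5.57% ± 0.572 in DC goblet against 0.742% ± 0.0505 in DC other cells, and 2.9% ± 0.135 in Si8 goblet against 0.91% ± 0.0194 in Si8 other cells. By coding length Krt7 made up 11.7% ± 1.12 of type II in DC goblet against 1.65% ± 0.111 in DC other cells, and 6.27% ± 0.283 in Si8 goblet against 2.02% ± 0.0426 in Si8 other cells, so its share depends on the length used while the order of the groups does not. These shares are descriptions with no test.

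**Figure D4:**
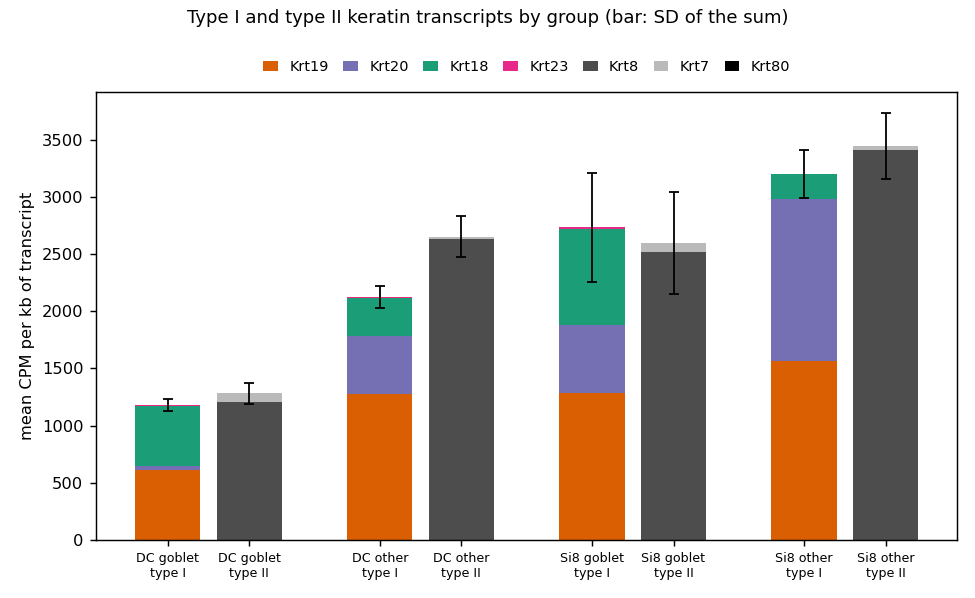
Mean CPM per kb of transcript, from 0, of the type I chains (left bar of each group) and the type II chains (right bar), stacked by gene, with the SD of the sum over 4 libraries as error bar. Krt18 fills 45.1% of the type I bar in DC goblet and 6.68% in Si8 other cells, and Krt20 fills 2.86% in DC goblet and 43.9% in Si8 other cells.

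Across the 16 libraries the log2 CPM of Krt8, Krt19 and Krt20 ran together (Pearson r = 0.985 for Krt8 and Krt20, 0.981 for Krt19 and Krt20, 0.974 for Krt8 and Krt19). Krt7 and Krt18 gave r = 0.754, and Krt8 and Krt18, partners in the filament, gave r = -0.43. Among 9133 genes of at least 10 CPM on average, the profile most like that of Krt7 was Qsox1, a disulfide-forming oxidase of the secretory pathway (r = 0.996), followed by Dpysl2 and by Kdelr2, a receptor that retrieves proteins to the endoplasmic reticulum (r = 0.991 each). Krt8 was most like Parp4 (0.986), the intestinal transcription factor Hnf4a (0.985) and Rhof (0.984), and Krt18 most like Mlph (0.983), Mtss1 (0.971) and Capn8 (0.969). Krt20 was most like Trim12a (0.995), Serpinb1a (0.992) and Gcnt2 (0.991), and Krt19 most like Gcnt2 (0.987), Frrs1 (0.986) and Stom (0.983). Krt80 was most like Rnd3 (0.939), Txnip (0.924) and Maff (0.92), and Krt23 most like Mink1 (0.935), Mex3c (0.926) and Arid3a (0.922). The 16 points fall into 4 groups and share the groups' differences in depth, so these values describe likeness over the groups.

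Beyond the 7, 44 other keratin genes were listed, and 10 of them passed the filter on low counts. Krt36, a type I chain known from hair and tongue, averaged 7.90 ± 2.4 CPM in DC goblet against 22.7 ± 7.86 CPM in DC other cells (log2 -1.52 ± 0.264, adjusted p = 9.17e-05) and 0.317 CPM in Si8 goblet and 0.215 CPM in Si8 other cells. Krt84 averaged 3.28 ± 1.04 CPM in Si8 goblet against 11.1 ± 2.76 CPM in Si8 other cells (log2 -1.76 ± 0.228, adjusted p = 1.71e-06). Krt83 rose in goblet cells, to 5.39 ± 0.491 CPM in DC goblet against 1.99 ± 0.661 CPM in DC other cells and to 2.22 ± 0.332 CPM in Si8 goblet against 0.976 ± 0.0874 CPM in Si8 other cells, and so did Krt78, at 1.35 ± 0.277 CPM in DC goblet against 0.51 ± 0.093 CPM in DC other cells and 3.86 ± 1.82 CPM in Si8 goblet against 0.545 ± 0.268 CPM in Si8 other cells. Krt14, the basal chain of stratified epithelium, averaged 0.755 ± 0.163 CPM in DC goblet against 2.82 ± 0.381 CPM in DC other cells. Krt10, Krt12, Krt15 and Krt222 also averaged at least 1 CPM in a group and none of these averaged above 5.23 CPM. Of the 10, 2 rose and 4 fell in DC goblet cells, where 55.7% of all genes were called, and 4 rose and 3 fell in Si8 goblet cells, where 64.9% were called, so these counts lie near the background.

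Transcripts of most proteins that tie keratin filaments to desmosomes and hemidesmosomes fell in goblet cells of both regions. Of 16 linker and junction plaque genes tested, 1 rose and 13 fell in DC goblet cells, with a median log2 fold change of -0.97, and 1 rose and 13 fell in Si8 goblet cells, with a median of -0.71, where the median of all genes was 0.03 in both regions and 27.9% of all genes fell in the colon and 31.8% in section 8. Evpl, envoplakin, which binds keratins at the cell edge, averaged 20.2 ± 1.58 CPM in DC goblet against 154.1 ± 18.1 CPM in DC other cells (log2 -2.93 ± 0.13, adjusted p = 4.02e-13) and 42.7 ± 5.49 CPM in Si8 goblet against 203.7 ± 36.1 CPM in Si8 other cells (log2 -2.25 ± 0.123, adjusted p = 8.8e-12). The desmosomal cadherin Dsg2 fell by 1.68 on the log2 scale in the colon and by 0.73 in section 8, and desmoplakin (Dsp) by 1.17 in the colon and 0.55 in section 8. The cross-linker plectin (Plec) fell by 1.15 in the colon and 1.46 in section 8, and the difference of these effects did not pass (adjusted p = 0.367). Dystonin (Dst) fell by 1.34 in the colon and 2.42 in section 8, and these effects differed by 1.08 ± 0.168 (adjusted p = 5.43e-05). Plakophilin 1 (Pkp1) was the 1 gene that rose, to 71.5 ± 5.47 CPM in DC goblet against 40.8 ± 4.55 CPM in DC other cells (log2 0.81 ± 0.145, adjusted p = 0.00011) and to 61.4 ± 10 CPM in Si8 goblet against 35.3 ± 8.4 CPM in Si8 other cells (log2 0.80 ± 0.143, adjusted p = 9.09e-05). Eppk1 was not analysed here.

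**Figure D5:**
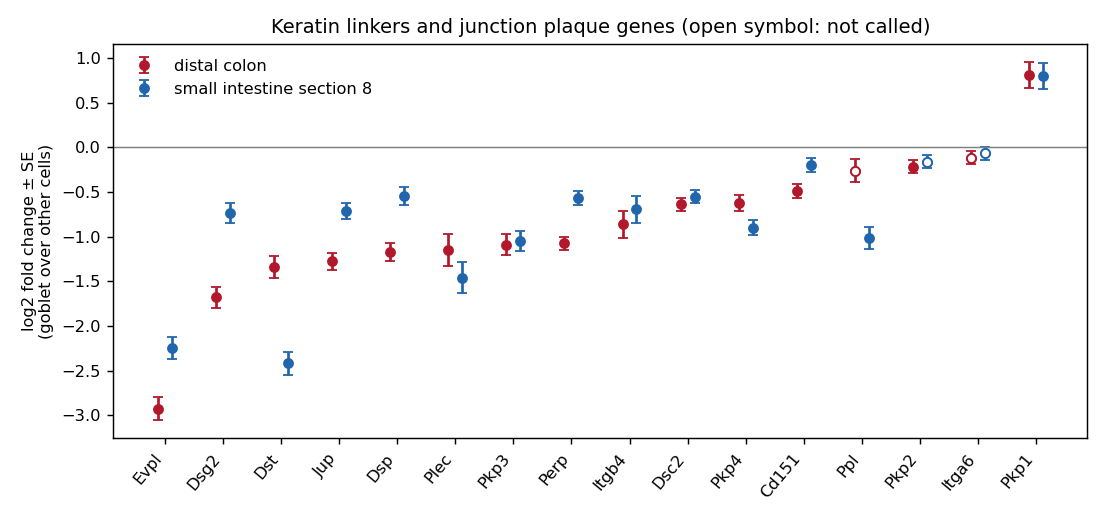
Log2 fold change of goblet over other cells ± SE of 16 linker and junction plaque genes, in distal colon (left of each pair) and section 8 (right); open symbols did not reach adjusted p under 0.05. All lie below 0 except Pkp1, at 0.81 in the colon and 0.80 in section 8.

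Of 12 genes known to act on keratin filaments, 1 rose and 7 fell in DC goblet cells (median log2 -0.34), and 1 rose and 8 fell in Si8 goblet cells (median -0.31). Of all genes 27.8% rose and 27.9% fell in the colon, 33.1% rose and 31.8% fell in section 8, and the median was 0.03 in both. Among those counted as fallen in section 8, Hspb1 was near the floor, at 0.242 CPM in Si8 goblet against 0.457 CPM in Si8 other cells. Ywhaz fell there by 1.12-fold only, and the libraries overlapped for both genes. Sfn, a 14-3-3 protein, fell by 1.80 ± 0.126 on the log2 scale in DC goblet cells (adjusted p = 2.9e-10) and by 0.76 ± 0.122 in Si8 goblet cells (adjusted p = 2.29e-05). Fam83h, which recruits casein kinase 1 to keratins in human cells, fell by 1.13 in DC goblet and by 1.27 in Si8 goblet cells. The gene that rose in DC goblet cells was Csnk1a1, of casein kinase 1 (log2 0.22 ± 0.0702, edgeR adjusted p = 0.0105). In Si8 goblet cells it was Ppp2ca (log2 0.49 ± 0.0862, edgeR adjusted p = 6.94e-05). Each fell in the other region, Csnk1a1 by 0.44 in Si8 goblet and Ppp2ca by 0.34 in DC goblet cells. Tgm2, the transglutaminase that cross-links keratins in mouse liver, averaged 5.71 CPM in DC goblet against 183.5 CPM in Si8 goblet cells, and 9.14 CPM in DC other against 488 CPM in Si8 other cells.

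Most genes of surface differentiation other than keratins fell in DC goblet cells, as Krt20 did. Of 13, 12 fell and none rose in DC goblet cells, with a median log2 fold change of -3.50, and in Si8 goblet cells 8 fell and 2 rose, with a median of -0.76. Over all genes 27.9% fell in DC goblet cells, and 31.8% fell and 33.1% rose in Si8 goblet cells, with a median of 0.03 in both regions. Emp1 averaged 26.8 CPM in DC goblet against 1120 CPM in DC other cells, and Car4, the membrane carbonic anhydrase, 27.4 CPM in DC goblet against 1428 CPM in DC other cells. In section 8 Klf4, a transcription factor of goblet and surface cells, rose by 0.59 ± 0.183 (adjusted p = 0.00951) and Lypd8 by 0.33 ± 0.117 (adjusted p = 0.0201). For both genes the Si8 goblet and Si8 other libraries overlapped. For 11 of the 13 the goblet effect was lower in the colon than in section 8, as it was for Krt20 and for 16.5% of all genes. Car4, Slc26a3 and Aqp8 of this list are also among the colonocyte markers, and DC other cells were the sort labelled colonocytes. The list was chosen with earlier results of these data known, so its counts are descriptions and no independent support for the Krt20 result.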

How the data were processed

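Read counts per gene were deposited by the authors in a table for each region, of 46882 genes each; a further deposited table of normalized values was not used. The submitters' processing notes name the mm10 build and, with no parameters, STAR 2.4.0f, HTSeq 0.6.1p1, FastQC 0.11.2 and DESeq2 1.14. Per the labels' protocols the kit was stranded and used ribosome-depleted total RNA, which does not fix the strand setting of the counting. 4 entries with a repeated symbol were left out. Groups came from the labels, which do not say which libraries are from separate animals, so p-values reflect the spread between these libraries alone, which may be technical. No pair of replicates agreed within sampling noise (chi-square per degree of freedom 4.63 to 186 over 24 pairs). This value was 4.63 to 17.9 in DC pairs and 23.6 to 186 in Si8 pairs, whose libraries were also deeper. The edgeR fit below takes in all 4 groups and shares its estimate of the spread among them. Against fits of 2 groups, its SEs were larger for every keratin in the colon and smaller for most in section 8.

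Tests of the deposited counts used edgeR 4.0.16 with R 4.3.3 (TMM, filterByExpr, 1 fit over 4 groups with no covariate, robust quasi-likelihood F test, Benjamini-Hochberg over 16001 genes, called under 0.05). An SE is the size of the log2 fold change divided by the root of its F statistic, 95% intervals are normal ones from that SE, and CPM uses TMM-scaled totals. The common biological coefficient of variation was 0.128. The 2 ratios were compared as log2 of counts plus 0.5. Coordinates and transcript lengths (the principal transcript of each gene) come from GENCODE M21, promoters from RefSeq, and near-identical copies from blastn 2.17.0 (at least 100 bp, 90% identity and 50% of the other transcript). Alternatives were DESeq2 1.42.0, relative log expression factors, no filter, leaving out abundant genes, fitting 2 groups, and leaving out each library. The fit was tested on simulated counts, and the permutation test on small fixed sets of values with known answers.

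The members and gene lists were chosen with earlier results of these data known. Named genes were all 7 keratins, other keratins averaging at least 1 CPM in a group, and the 3 genes of highest Pearson r. Per list and comparison, names were taken from up to 3 called genes of the largest change in each direction at 10 CPM or more. Further values of Dsp, Plec, Dsg2, Csnk1a1, Ppp2ca and Nefl were given after they were seen.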

Additional observations from a re-analysis of the deposited data

Results flagged for a closer look

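Krt8 in Si8 goblet cells had 1 library apart from the other 3: replicate 3, at 6196 CPM, left a gap of 0.84 of the group's range to the next, more than Dixon's critical value for 4 samples allows. Chance alone marks about 1 in 20 groups, and 28 were examined. The same library was also the highest of its group in CPM for Krt7, Krt18, Krt19, Krt20 and Krt23. Its TMM factor was the lowest of the 16 libraries, 0.792 against 0.885 to 1 in the rest of its group. A lower factor raises every CPM of a library. Krt19 had 72504 reads of 39.6 M in replicate 3 and 74099 of 37.4 M in replicate 1. Without the factor, the keratins' share of counts was still highest in replicate 3, 0.960% against 0.816% to 0.851%. The part of the factor in the gap was not tested.

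The goblet effect differed between regions for 6 keratins by edgeR's test of the difference of log2 fold changes, the colonic effect minus that of section 8. It was 0.59 for Krt7, -0.69 for Krt8, -1.34 for Krt18, -0.78 for Krt19, -2.65 for Krt20 and -1.66 for Krt23.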

How the results depend on the processing

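Each called keratin kept its direction, and each keratin its side of the threshold, in all 5 comparisons under relative log expression factors, no filter on low counts, removal of mitochondrially encoded and the 10 most abundant genes, and DESeq2. With only the 2 groups compared in the fit, Krt19 in section 8 was no longer called (log2 fold change -0.287, edgeR adjusted p = 0.0592). Its SE was 0.122 there, against 0.0871 in the fit over 4 groups. In the colon its SE was 0.0651 against 0.088, in a fit of 8 libraries too. In section 8 the SEs of Krt7, Krt8, Krt18 and Krt20 rose as well, and those of Krt23 and Krt80 fell. In the colon the SE fell for every keratin. The edgeR adjusted p of Krt8 in section 8 went from 0.00287 to 0.0283. Leaving out each of the 16 libraries changed calls for Krt23 in the colon (log2 fold change -0.783 to -0.474), for Krt80 between goblet cells of the regions (0.381 to 0.893) and for the difference of its goblet effect (-1.38 to -0.879), and no other keratin's call. Counts of genes called stayed within 1.5 times under all of these. The exact permutation test of a ratio with 3 against 4 libraries cannot go below p = 0.0571, so those fits gave values only, all in the same direction. By coding length, an alternative chosen after seeing the data, the type I to type II ratio was 0.796 in DC goblet and 0.985 in Si8 goblet cells. No paired analysis was made, because no label ties a goblet library to an other-cell library. The section 8 titles carry numbers that alternate between other and goblet cells, without saying whether neighbours share an animal. A pairing by these numbers was not tested, so the section 8 SEs treat the libraries as unrelated. Krt80 rests on 7 to 31 reads per library, which limits its precision.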

Other observations

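Among intermediate filament genes outside the keratin family, 17 were listed and 11 passed the filter; 2 rose and 7 fell in DC goblet cells (median log2 fold change -1.07), and 3 rose and 5 fell in Si8 goblet cells (median -0.62). Of all genes tested 55.7% were called in the colon, 27.8% higher and 27.9% lower. In section 8 64.9% were called, 33.1% higher and 31.8% lower, so the section 8 count is near the background. The median of all genes was 0.03 in both regions. Nefl, Nefm, Nefh, Iffo1 and Nes were near the floor, the highest group mean among them being 1.92 CPM, for Nefl in DC other cells. Lmna, the A-type lamin of the nuclear envelope, averaged 344.2 CPM in DC goblet against 722.8 CPM in DC other cells (log2 -1.07 ± 0.0926, adjusted p = 6.78e-09 in edgeR's test), and 272.2 CPM in Si8 goblet and 253.8 CPM in Si8 other cells, where it did not pass (adjusted p = 0.346). Iffo2 fell in DC goblet cells, at 24.7 CPM against 63.3 CPM in DC other cells, and rose in Si8 goblet cells, at 10.5 CPM against 3.82 CPM in Si8 other cells; the difference of the 2 effects was -2.80 ± 0.227 on the log2 scale (adjusted p = 2.09e-08). The B-type lamin Lmnb2 fell by 0.48 ± 0.087 in DC goblet cells (adjusted p = 0.000113) and rose by 0.42 ± 0.0855 in Si8 goblet cells (adjusted p = 0.00028). Vim, the vimentin of mesenchymal and immune cells, averaged 2.98 CPM in Si8 goblet against 19.9 CPM in Si8 other cells, beside intraepithelial lymphocyte markers that summed to 8.39 to 16.3 CPM in Si8 goblet against 187 to 299 CPM in Si8 other cells; their part in this difference was not tested.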
